A study of Saccharomyces cerevisiae with 27 samples.

Results

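The 10 genes described here drive and restrain the budding yeast cell division cycle. They were chosen by name from the rows of the count table: the G1 cyclin genes CLN1 (YMR199W), CLN2 (YPL256C) and CLN3 (YAL040C), the Pho85 cyclin gene PCL1 (YNL289W), the S-phase cyclin genes CLB5 (YPR120C) and CLB6 (YGR109C), the mitotic cyclin genes CLB1 (YGR108W) and CLB2 (YPR119W), and 2 partners, the inhibitor gene SIC1 (YLR079W) and the transcription factor gene SWI4 (YER111C). They were 10 of 6746 genes in the table, and all 10 passed the filter on low counts that left 6209 genes tested.

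Cyclins are short-lived proteins that switch on the kinase Cdc28 at set points of the cycle. Cln3 acts first in G1 and releases the transcription factors SBF (Swi4 with Swi6) and MBF (Mbp1 with Swi6), which then drive a burst of CLN1, CLN2, PCL1, CLB5 and CLB6. Cln1 and Cln2 lead to the destruction of Sic1, which until then holds the S-phase kinase Clb5-Cdc28 and its partner Clb6-Cdc28 inactive, and Clb1 and Clb2 bring the cell into mitosis. Osmotic stress and heat are both known to delay this cycle for a time in yeast, and the Sic1 protein is a known target of the osmostress kinase Hog1.

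The study asked how residues of histone H4 that can be phosphorylated affect transcription under stress, and sequenced poly(A) RNA of whole cells from 9 groups with 3 biological replicates each, 27 libraries in all. Cells of 4 strains, the wild type and the mutants H4-S47D, H4-T30A and H4-T30D, were grown to log phase in YPD, a rich medium, at 30°C and were sampled without stress. Wild-type and H4-S47D cells were also sampled after 15 min in 0.4 M NaCl at 30°C (osmostress), and H4-T30A, H4-T30D and wild-type cells after 10 min at 39°C (heat). S47D and T30D put an aspartic acid in place of the serine or threonine, a negative charge that imitates a phosphate, and T30A puts an alanine, which cannot be phosphorylated. By their labels all strains derived from BY4741 and were MATa, a haploid mating type. All carried his3Δ200 and leu2Δ0, as well as lys2Δ0 and trp1Δ63, together with ura3Δ0 and met15Δ0, and the construct can1::MFA1pr-HIS3. By the labels hht1-hhf1 was replaced by NatMX4 in all of them, the wild type too, and a synthetic histone H3 and H4 gene pair marked with URA3 stood at hht2-hhf2. Reads were nevertheless counted on HHT1 (33.8 to 162 CPM) and HHF1 (15.1 to 49.1 CPM) in every library, where CPM is a gene's counts as a part of the TMM-scaled total, and whether they came from the synthetic pair or from these genes was not tested. Both stresses and all 3 mutants were compared with the same 3 libraries of non-stressed wild type, so these comparisons share their control. The methods speak of separate wild types for H4-S47 and H4-T30, while the labels give only 1, and cells were not synchronised by any step the methods give. Counts per gene cannot show the point mutations themselves. In such bulk RNA, fewer cells in the phase that expresses a cyclin and less RNA per cell cannot be told apart.

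The libraries held between 10212777 and 19503694 counts, and the 10 genes had between 16 and 3563 counts in a library. Replicates differed by more than counting error (chi-square 2.13 to 39.6 times its degrees of freedom), so the spread between them sets the precision. All 5 MATa markers were present and summed to 378 to 1943 CPM in a library, whereas the 4 MATα markers summed to 40.0 to 125 CPM. Despite the shared trp1Δ63 label, TRP1 stood at 189 to 320 CPM in the 6 H4-S47D libraries and at no more than 3.96 CPM in the other 21. The S47D mutation and this marker therefore cannot be told apart in any comparison of H4-S47D with wild type. In heat-stressed wild-type replicate 3, STL1, a glycerol transporter gene induced by osmostress, stood at 115 CPM, against 4.88 and 3.68 CPM in the other 2 heat-stressed wild-type libraries and 4754 to 5109 CPM in the osmostressed wild type, and the highest TRP1 level outside H4-S47D, 3.96 CPM, was in this library too. HHF2 stood at 11.9 CPM in this library and at 12.1 CPM in osmostressed H4-S47D replicate 1, against no more than 1.36 CPM in the other 25. Results that rest on these 2 libraries are given without them where that changes a call.

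The sequences upstream of the start codons show which of these genes carry the short motifs through which SBF, MBF and Mcm1 are known to act. In the 800 bases before each start codon of the R64 genome assembly, both strands were searched for CNCGAAA (an SBF-type motif), ACGCGT (an MBF-type motif) and TTNCC and GGNAA spaced by 6 bases (the early cell cycle box of Mcm1 type). CLN2, PCL1, CLN1, SWI4 and CLB6 each held 2 or more such matches within 220 bases, and these stretches are printed with every match in capitals. They are read toward the start codon, and lie at chrXVI:67136-67250 on the minus strand, chrXIV:87526-87648 on the plus strand, chrXIII:662182-662225 on the plus strand, chrV:386304-386394 on the minus strand and chrVII:706863-706914 on the minus strand.
CLN2: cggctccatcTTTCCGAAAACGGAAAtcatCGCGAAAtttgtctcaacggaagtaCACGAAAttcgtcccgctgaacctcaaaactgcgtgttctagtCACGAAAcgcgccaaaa
PCL1: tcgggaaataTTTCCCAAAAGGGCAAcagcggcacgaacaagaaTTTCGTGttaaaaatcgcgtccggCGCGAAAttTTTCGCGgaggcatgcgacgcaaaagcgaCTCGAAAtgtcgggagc
CLN1: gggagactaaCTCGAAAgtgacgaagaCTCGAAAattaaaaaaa
SWI4: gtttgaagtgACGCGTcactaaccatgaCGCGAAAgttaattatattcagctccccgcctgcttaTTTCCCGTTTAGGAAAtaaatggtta
CLB6: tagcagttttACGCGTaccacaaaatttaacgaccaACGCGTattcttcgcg
The CLN2 stretch opens with an early cell cycle box 626 to 611 bases before the start codon, followed by 3 SBF-type motifs that start 606, 581 and 538 bases before it. In PCL1 such a box at 361 to 346 bases is followed by 4 SBF-type motifs, and in SWI4 an MBF-type and an SBF-type motif precede the box. CLB6 held 2 MBF-type motifs and none of the SBF type, and CLN1 held 3 of the SBF type, 2 of them in the printed stretch, and 1 of the MBF type. No 2 matches of these motifs overlapped in the 10 genes.

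The SBF-type motif was in the windows of 6 of the 10 genes (CLN1, CLN2, CLB1, PCL1, SIC1 and SWI4) and in 29.9% of the 5997 nuclear protein-coding genes with a full window. The MBF-type motif was in 3 of 10 (CLN1, CLB6 and SWI4) against 7.62%, and the early cell cycle box in 3 of 10 (CLN2, PCL1 and SWI4) against 2.87%. AGGGG, the stress response element through which Msn2 and Msn4 act, was in 5 of 10 (CLN1, CLN3, CLB1, CLB2 and SIC1, with 3 matches in SIC1) against 48.2%. CLB5 held none of the 4. A match describes these letters only and is not a bound site.

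Without stress, levels differed widely among the 10 genes. Per kilobase of gene, which allows genes to be compared, SIC1 stood at 68.5 ± 3.0 CPM per kb (SD, n = 3) and CLN2 at 67.1 ± 4.8 in non-stressed wild-type cells. They were followed by CLN3 (59.2 ± 11.2 CPM per kb), PCL1 (52.8 ± 6.7), CLB1 (40.5 ± 3.0), CLN1 (34.9 ± 5.4) and CLB2 (27.1 ± 5.0), and then by CLB5 (17.0 ± 1.6), CLB6 (5.54 ± 2.22) and SWI4 (3.93 ± 0.80). In this order the neighbours SIC1 and CLN2, CLN2 and CLN3, CLN3 and PCL1, and CLB6 and SWI4 lay closer together than the SD of the more variable of each pair. CLN2 stood above its paralog CLN1, and CLB1 above CLB2. CLB1 and CLB6 are transcribed toward each other on chrVII with 307 bases between them (chrVII:703636-705051 and chrVII:705359-706501), and CLB2 and CLB5 likewise on chrXVI with 746 bases between them (chrXVI:771653-773128 and chrXVI:773875-775182). No annotated gene overlaps any of the 10, but the strand setting of the counting is not given in the sources used here, so transcripts running past the end of one convergent partner could be counted on the other.

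**Figure D1:**
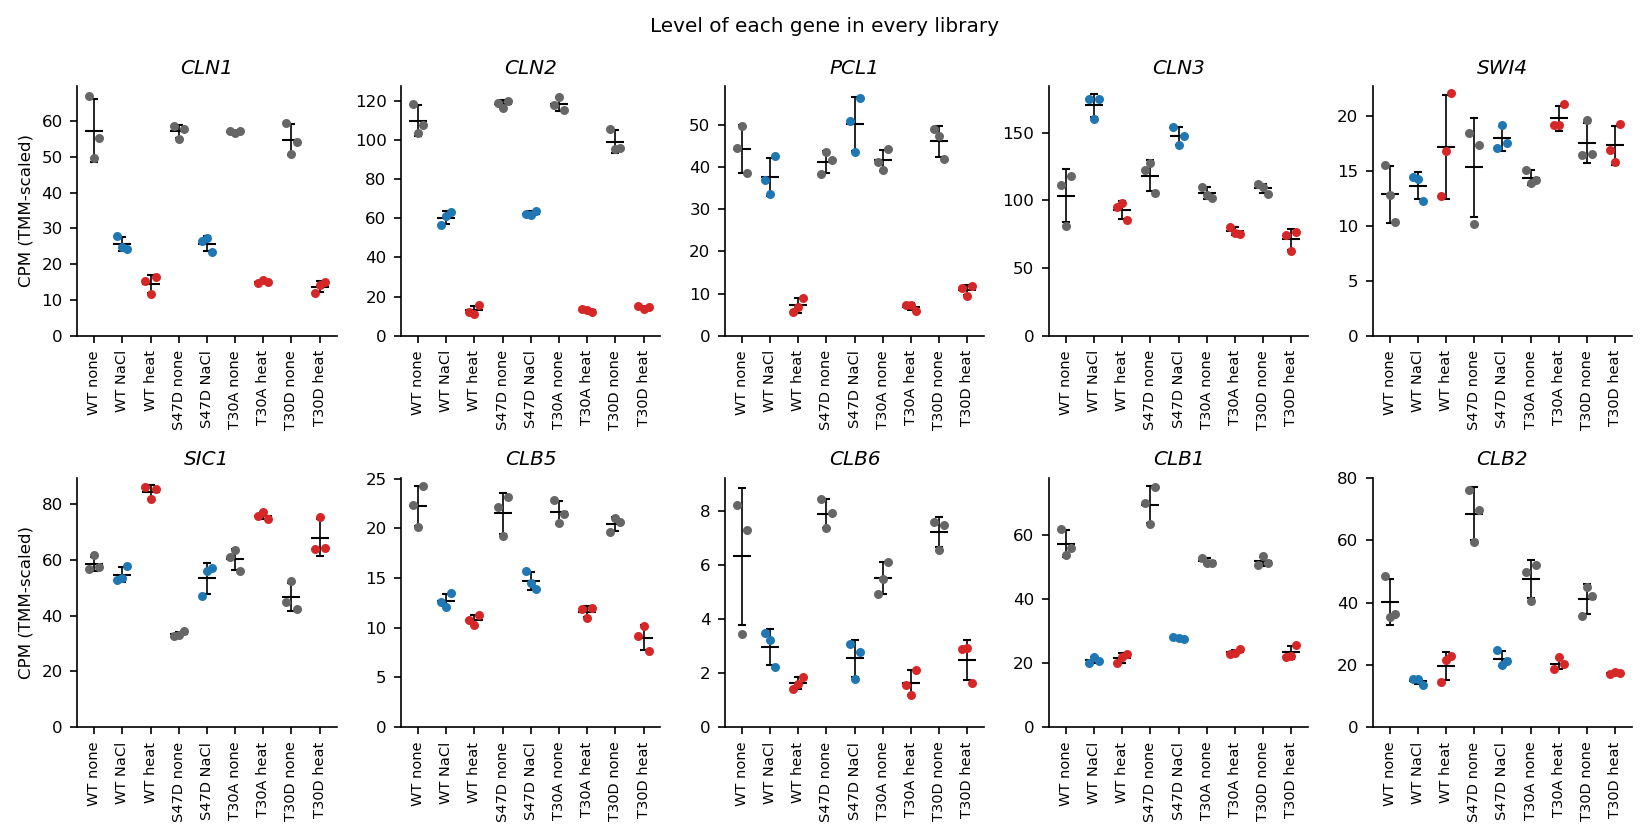
Level of each of the 10 genes (CPM, TMM-scaled, linear axes from 0) in every library of the 9 groups, with grey points for no stress, blue for osmostress and red for heat, and bars for the mean ± SD of 3 replicates. CLN2 stood at 104 to 119 CPM in non-stressed and 11.2 to 15.5 CPM in heat-stressed wild-type libraries, and SIC1 was lowest in non-stressed H4-S47D libraries, at 32.8 to 34.4 CPM.

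Osmostress lowered 6 of the 8 cyclin genes in wild-type cells and raised 1, CLN3. The mitotic and G1 cyclins CLB1, CLB2 and CLN1 fell furthest, CLN2, CLB5 and CLB6 fell less, and PCL1, SIC1 and SWI4 did not pass the test. Tested against 0 with edgeR, 1 of the 10 genes was called higher and 6 lower, where 40.3% and 36.2% of all 6209 tested genes were called. The median difference of the 10 genes was -0.84 on the log2 scale, beside 0.08 over all tested genes. Past a 2-fold change 0 were called higher and 2 lower (CLB1 and CLB2), beside 12.8% and 12.5% of all genes.

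CLB2, the main mitotic cyclin gene, stood at 48.6, 35.2 and 36.4 CPM in the non-stressed and at 15.4, 15.5 and 13.5 CPM in the osmostressed wild-type libraries. The groups were far apart, with a fitted fall of 2.71-fold (log2 difference -1.44 ± 0.14 SE, adjusted p = 0.0022 past 2-fold). Its paralog CLB1 went from 62.0, 53.9 and 56.0 CPM to 20.1, 22.0 and 20.7 CPM, a fall of 2.74-fold (log2 difference -1.46 ± 0.08, adjusted p = 1.17e-06 past 2-fold). The 2 mitotic cyclins thus fell by nearly the same amount. CLN1 went from 67.0, 49.6 and 55.3 CPM to 27.9, 24.7 and 24.1 CPM, and CLN2 from 119, 104 and 108 CPM to 56.5, 61.2 and 63.2 CPM. Neither pair of groups overlapped, and the falls were 2.24-fold for CLN1 (adjusted p = 2.12e-11 against 0) and 1.83-fold for CLN2 (adjusted p = 7.56e-12). CLB5, the main S-phase cyclin gene, fell 1.74-fold (22.2 ± 2.0 to 12.7 ± 0.7 CPM, adjusted p = 3.32e-08). CLB6 fell 2.09-fold (6.34 ± 2.53 to 2.98 ± 0.67 CPM, adjusted p = 0.000323), but non-stressed replicate 2, at 3.46 CPM, lay within the osmostressed range of 2.22 to 3.49 CPM.

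CLN3, the G1 cyclin that acts upstream of SBF, went the other way: it stood at 111, 80.9 and 118 CPM without stress and at 175, 160 and 175 CPM under osmostress. All 3 osmostressed libraries were above all 3 non-stressed ones, and the rise was 1.65-fold (log2 difference 0.72 ± 0.10, adjusted p = 8.19e-08). PCL1, whose product pairs with the kinase Pho85, stood at 44.6, 49.8 and 38.6 CPM without stress and at 37.0, 33.6 and 42.6 CPM under osmostress. These groups overlapped (log2 difference -0.24, 95% interval -0.47 to -0.00, adjusted p = 0.0603). SIC1 differed by -0.10 (interval -0.27 to 0.07, adjusted p = 0.263) and SWI4 by 0.08 (interval -0.28 to 0.44, adjusted p = 0.7). With library totals in place of TMM scaling, which shifts the median of all genes by 0.27, neither CLB1 nor CLB2 was called past 2-fold (log2 differences -1.18 and -1.17). With 1 library left out, CLN1 was also called past 2-fold without non-stressed replicate 2 (-1.26, adjusted p = 0.0121) or osmostressed replicate 1 (-1.22, 0.0405), and PCL1 was called lower without non-stressed replicate 3 (-0.32, 0.017) or osmostressed replicate 3 (-0.31, 0.0258). PCL1 was also called lower with RLE scaling (-0.30, 0.0171), upper-quartile scaling (-0.27, 0.0381) and DESeq2 (-0.30, 0.0171). With all libraries kept, CLN1 was called past 2-fold with RLE scaling (-1.23, adjusted p = 0.0179) and upper-quartile scaling (-1.19, 0.045).

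Heat lowered 7 of the 8 cyclin genes in wild-type cells, the G1/S cyclins CLN2 and PCL1 most of all, and left CLN3 without a call. SIC1 rose. Against 0, 2 of the 10 genes were called higher and 7 lower, beside 41.7% and 36.4% of all tested genes, and past 2-fold 0 were called higher and 5 lower (CLN1, CLN2, PCL1, CLB1 and CLB6), beside 15.8% and 15.4%. The median difference of the 10 genes was -1.22, beside 0.08 over all tested genes.

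CLN2 stood at 11.9, 11.2 and 15.5 CPM in heat-stressed wild-type libraries, from 119, 104 and 108 CPM without stress. No heat-stressed library came near a non-stressed one, and the fall was 8.55-fold (log2 difference -3.10 ± 0.09, adjusted p = 1.87e-20 past 2-fold), the largest among the 10 genes in wild type. PCL1 went from 44.6, 49.8 and 38.6 CPM to 5.68, 6.80 and 9.02 CPM, a fall of 6.19-fold (adjusted p = 1.05e-12 past 2-fold). CLN1 went from 67.0, 49.6 and 55.3 CPM to 15.3, 11.6 and 16.4 CPM, a fall of 3.99-fold (adjusted p = 4.16e-10 past 2-fold). The SBF-type motif is in the windows of these 3 genes, but also in those of CLB1, SIC1 and SWI4, and not in that of CLB6. CLB6 fell 3.86-fold, from 6.34 ± 2.53 to 1.62 ± 0.22 CPM (adjusted p = 0.00126 past 2-fold), at 16 to 22 counts per heat-stressed library. CLB1 fell 2.65-fold (57.3 ± 4.2 to 21.6 ± 1.5 CPM, adjusted p = 7.71e-06 past 2-fold). CLB2 and CLB5 fell 2.05-fold and 2.06-fold and were called against 0 (adjusted p = 1.36e-07 and 4.13e-10) but not past 2-fold (0.489 and 0.411).

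SIC1, the inhibitor gene, stood at 56.9, 61.6 and 57.3 CPM without stress and at 86.1, 81.7 and 85.5 CPM in heat. Every heat-stressed library was above every non-stressed one, and the rise was 1.44-fold (log2 difference 0.53 ± 0.08, adjusted p = 8.87e-07). SWI4 stood at 15.6, 12.8 and 10.3 CPM without stress and at 12.7, 16.8 and 22.2 CPM in heat. The groups overlapped, and its call as higher (log2 difference 0.41 ± 0.18, adjusted p = 0.0391) rested on single libraries and on the settings. It was lost without the heat-stressed replicate 3 that stood apart in STL1 (0.18, adjusted p = 0.379), without heat-stressed replicate 2 (0.42, 0.0599), and without non-stressed replicate 2 (0.39, 0.0828) or 3 (0.28, 0.177). With all libraries kept, it was lost with RLE scaling (0.35, 0.0693), upper-quartile scaling (0.33, 0.104) and library totals (0.35, 0.151). The same held with DESeq2 (0.35, 0.061), without the filter on low counts (0.37, 0.062) and with the libraries compared alone (0.33, 0.186). CLN3 (111, 80.9 and 118 CPM without stress, 95.0, 98.2 and 85.3 CPM in heat) differed by -0.15 (interval -0.35 to 0.05, adjusted p = 0.167) and was called lower without non-stressed replicate 2, its lowest non-stressed library (-0.30, adjusted p = 0.00269). With all libraries kept, CLN3 was called lower with upper-quartile scaling (-0.23, 0.0302) and library totals (-0.20, 0.045). No other wild-type heat call against 0 was lost without 1 library.

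**Figure D2:**
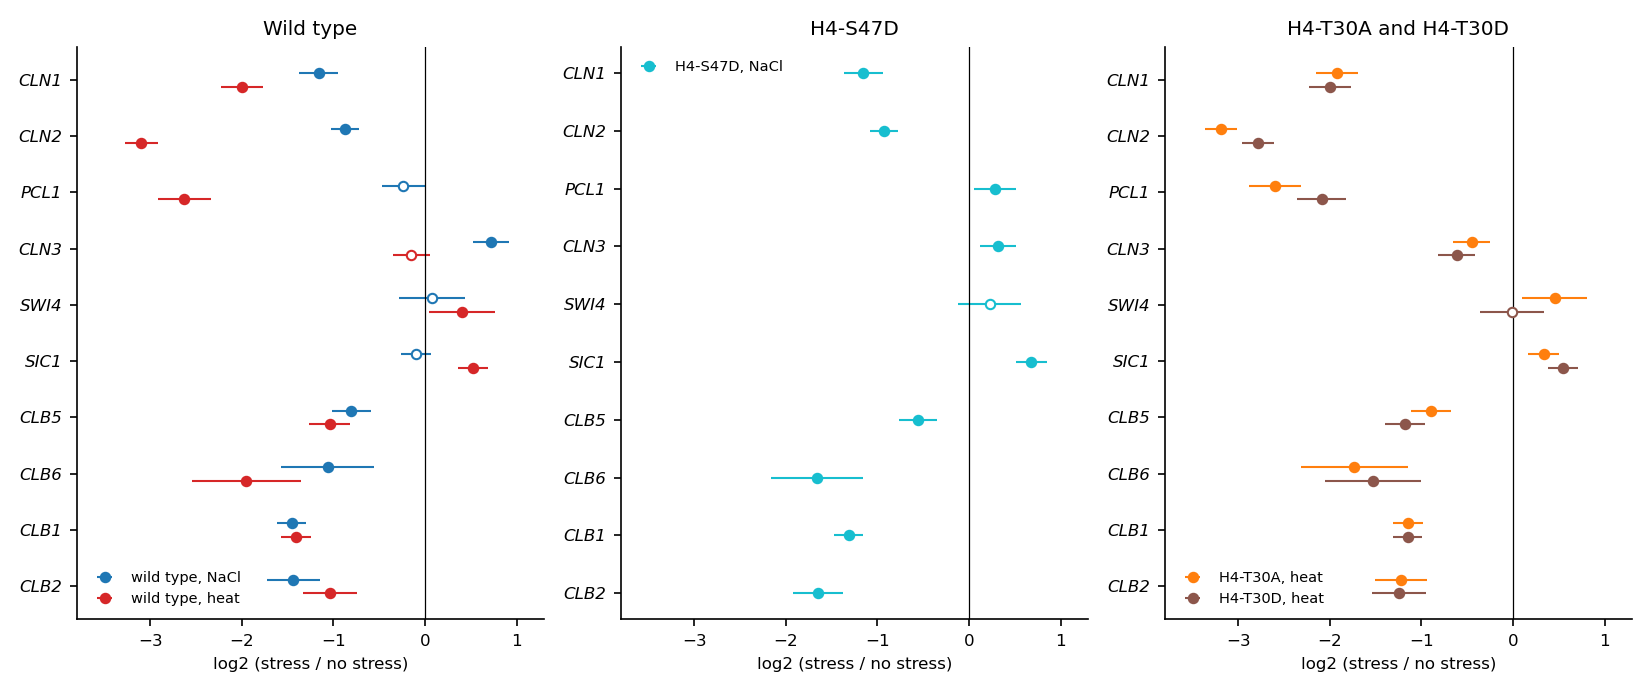
log2 difference between stressed and non-stressed libraries for each of the 10 genes, with 95% intervals from edgeR, for wild type (left), H4-S47D (middle) and H4-T30A and H4-T30D (right). Filled points passed the test against 0 at an adjusted p under 0.05 and open points did not. CLN2 was at -0.87 in osmostress and -3.10 in heat in wild type, and CLN3 at 0.72 and -0.15.

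Among the 10 genes, the 2 stresses differed most at PCL1 and CLN2. The difference between the wild-type heat and osmostress responses, in which the shared control cancels, was called for 7 of the 10 genes, 2 higher and 5 lower in heat, beside 29% and 34% of all tested genes. PCL1 was lower in heat by 2.39 on the log2 scale (5.25-fold, adjusted p = 5.37e-15) and CLN2 by 2.23 (4.68-fold, adjusted p = 3.12e-19), followed by CLB6 (log2 difference -0.89 ± 0.32, adjusted p = 0.0161), CLN3 (-0.87 ± 0.10, 6.19e-09) and CLN1 (-0.84 ± 0.12, 3.97e-07). SIC1 was higher in heat (0.63 ± 0.08, 9.18e-08) and so was CLB2 (0.40 ± 0.15, 0.0233). CLB1 differed by 0.05 (interval -0.12 to 0.22) and CLB5 by -0.24 (interval -0.47 to -0.01, adjusted p = 0.0635). With library totals, which shift the median of all genes by -0.33, CLB1 turned to -0.28 (adjusted p = 0.0389) and CLB2 was at 0.08 (0.735). The CLB2 call was lost without heat-stressed replicate 2 (0.33, 0.106) or 3 (0.28, 0.154) or osmostressed replicate 3 (0.31, 0.106), and that of CLB6 without replicate 1 of either stress (-0.81, 0.0566, and -0.77, 0.0663). CLB5 was called without osmostressed replicate 2 (-0.30, 0.0418) and SWI4 without heat-stressed replicate 1 (0.50, 0.0182). With all libraries kept, CLB5 was called lower with library totals (-0.56, 0.000638), upper-quartile scaling (-0.29, 0.0283) and no filter on low counts (-0.26, 0.0444). Under upper-quartile scaling the CLB2 call was lost (0.35, 0.0511).

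Within a library, ratios of counts of 2 of these genes do not depend on the scaling. Over 4 ratios and 8 pairs of groups, 32 differences were tested by a two-sided exact permutation test, in which 3 libraries against 3 cannot go below p = 0.1 and the smallest adjusted p was 0.2, so that none can be called. The count of CLN2 over that of CLN1 was 1.77, 2.09 and 1.95 in non-stressed wild-type libraries, 2.02, 2.47 and 2.62 in osmostress, and 0.780, 0.966 and 0.949 in heat. The heat-stressed libraries thus stood apart below the others, by 1.11 on the log2 scale from the non-stressed ones. The same ratio in heat was 0.822 to 0.916 in H4-T30A and 0.968 to 1.24 in H4-T30D. CLB2 over CLN2, the mitotic over the G1 cyclin, was 0.410, 0.340 and 0.338 without stress, 0.273, 0.253 and 0.214 in osmostress and 1.21, 1.91 and 1.47 in heat in wild type. Its mean differed from that without stress by -0.56 on the log2 scale in osmostress and by 2.06 in heat, with no overlap in either. CLB5 over CLB6 ranged from 2.71 to 5.78 without stress and from 5.98 to 7.36 in heat, on low CLB6 counts.

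**Figure D3:**
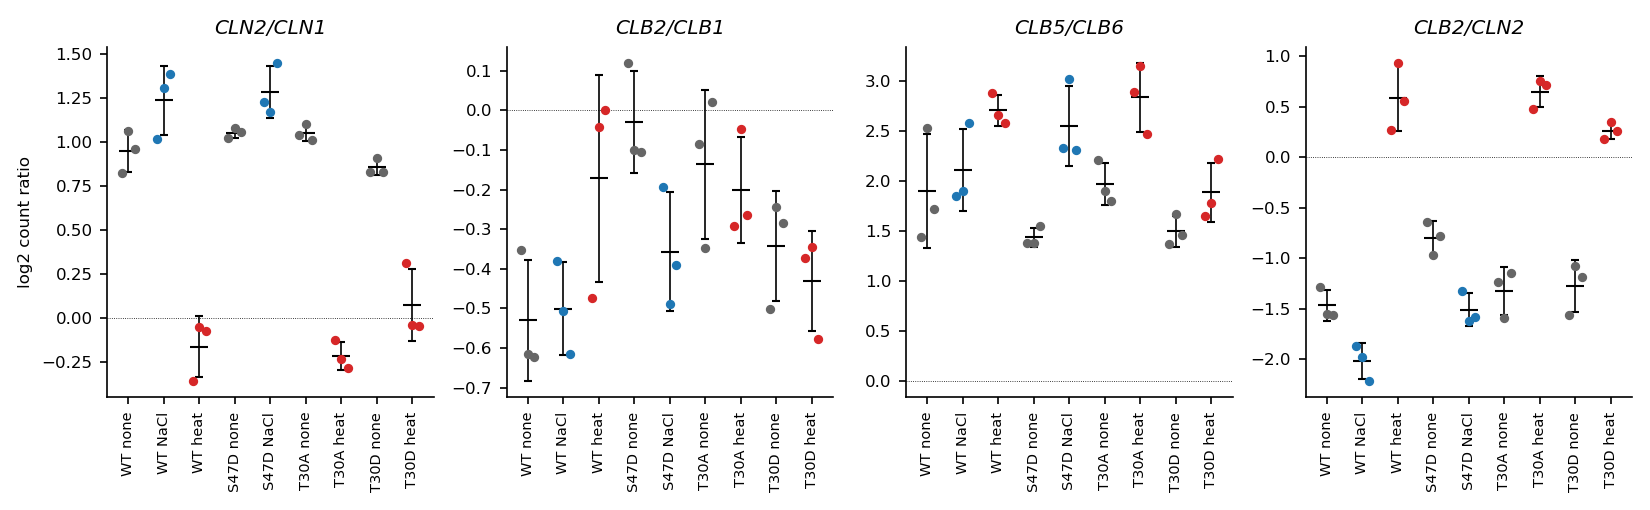
log2 ratio of the counts of 2 genes within each library (0.5 added to each count), by group, with grey points for no stress, blue for osmostress, red for heat, and bars for the mean ± SD of 3 replicates. The CLB2 to CLN2 ratio was above 0 only in the heat-stressed groups, with means of 0.59 in wild type, 0.65 in H4-T30A and 0.26 in H4-T30D.

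The other cell cycle genes, taken from lists of known regulators and targets, set these changes beside their neighbours in the cycle. Each count is to be read beside the share of all tested genes called against 0, which was 40.3% higher and 36.2% lower in osmostress and 41.7% and 36.4% in heat. Of 11 target genes of SBF and MBF, 1 rose and 10 fell in osmostress (median log2 difference -1.11) and likewise in heat (-1.30). RNR1, the large subunit of ribonucleotide reductase, fell by 2.37 and 2.74 on the log2 scale, and RFA1, a subunit of replication protein A, was the 1 that rose in each (0.22 and 0.40). Of 11 regulators of G1/S transcription, 2 rose and 5 fell in osmostress, and 5 rose and 5 fell in heat, near these shares. YOX1, whose product represses through early cell cycle boxes, fell by 0.63 in osmostress and by 2.32 in heat, as NRM1, the MBF co-repressor gene, fell by 2.03 and 1.34. SRL3, which codes for an inhibitor of G1 exit related to Whi5, rose by 1.36 and 2.45. WHI5 itself rose by 0.40 in heat.

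Of 12 M/G1 genes, expressed as cells leave mitosis, 11 fell in osmostress and 12 in heat (medians -1.17 and -1.10). FAR1, the gene for the G1 cyclin kinase inhibitor of the pheromone response, fell by 2.94 and 3.78, further than any of the 10 genes described here. Of 12 genes of the CLB2 cluster and mitosis, 2 rose and 7 fell in osmostress, but 3 rose and 2 fell in heat (medians -0.46 and 0.04). The 2 that fell in heat were CDC5, the polo kinase gene (-1.07), and CDC20, the activator of the anaphase-promoting complex (-0.57). Both also fell in osmostress, by 0.66 and 1.09. Of 5 G2/M regulators, 1 rose and 2 fell in osmostress, and 0 rose and 3 fell in heat (medians -0.09 and -0.52). Among them the forkhead genes FKH1 and FKH2, which drive the CLB2 cluster, fell in osmostress (-1.52 and -1.05) and in heat (-1.13 and -0.52). All 5 histone genes of S phase on the list (HTA1, HTA2, HTB1, HTB2 and the linker histone gene HHO1) fell in both stresses. Of 7 other cyclins and parts of the kinase, 2 rose and 4 fell in osmostress, and 3 rose and 3 fell in heat, again near the shares over all genes. CDC28, the kinase gene itself, rose by 0.67 and 0.31, and PCL2, a relative of PCL1, fell by 0.75 and 1.76. Among 10 genes of kinase inhibitors and cyclin destruction, 6 rose and 2 fell in osmostress, and 4 rose and 5 fell in heat. The 2 that fell in osmostress were FAR1 and CDC20, already counted in the M/G1 and CLB2 cluster lists. The 5 MATa markers also fell in both stresses (summed 983 to 1129 CPM in osmostress and 429 to 484 CPM in heat, from 1875 to 1943 CPM), while of the 4 MATα markers 1 rose and 1 fell in osmostress and 2 rose and 2 fell in heat, and their part in these results was not tested.

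**Figure D4:**
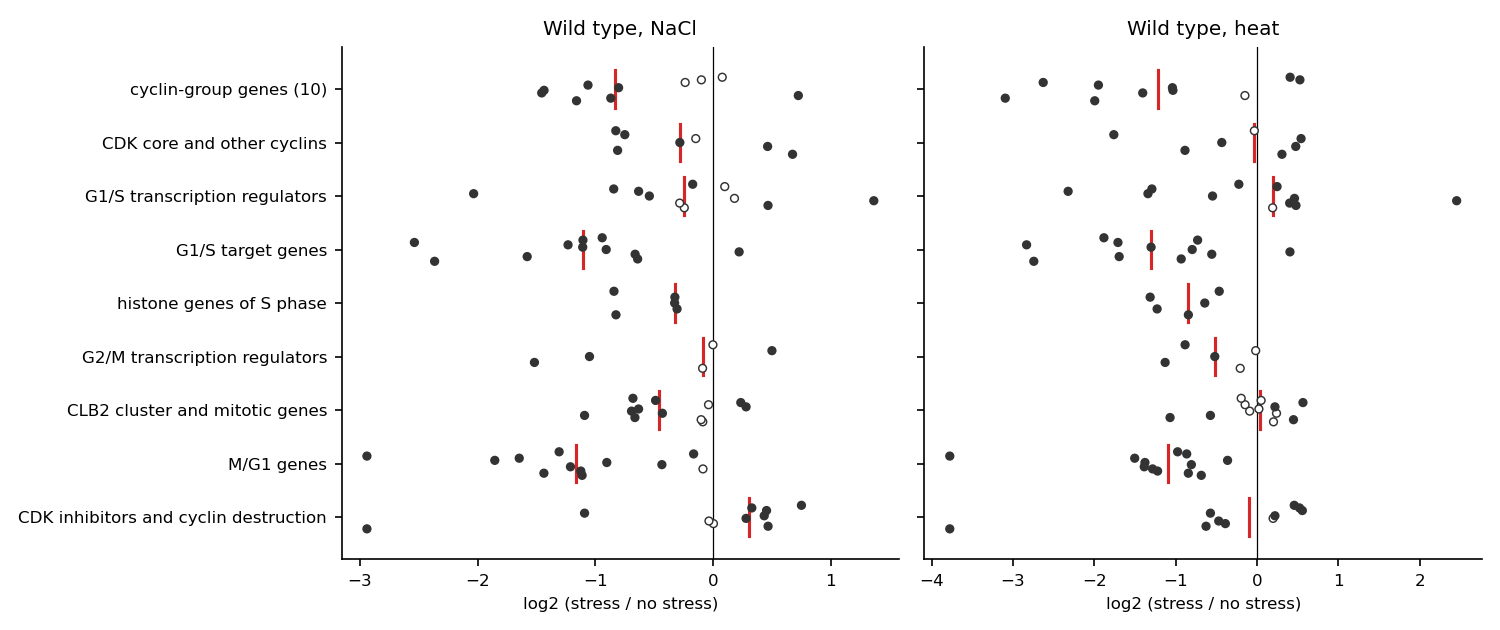
log2 difference in osmostress (left) and heat (right) in wild type for the 10 genes (top row) and for each list of other cell cycle genes, 1 point per gene. Filled points passed the test against 0, open points did not, and red bars mark medians, which were -0.84 and -1.22 for the 10 genes and 0.04 for the CLB2 cluster in heat.

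H4-S47D cells without stress held less SIC1 and more mitotic cyclin RNA than wild type. Of the 10 genes, 2 were called higher (CLB1 and CLB2) and 1 lower (SIC1), where 26.6% and 25.3% of all tested genes were called. SIC1 stood at 32.8, 32.9 and 34.4 CPM in non-stressed H4-S47D libraries against 56.9, 61.6 and 57.3 CPM in wild type. The groups were well separated, with H4-S47D 1.76-fold lower (log2 difference -0.81 ± 0.08, adjusted p = 2.46e-09). CLB2 stood at 76.2, 59.4 and 69.8 CPM against 48.6, 35.2 and 36.4 CPM, 1.70-fold higher (0.77 ± 0.13, adjusted p = 1.31e-05), with no overlap. CLB1 stood at 70.1, 63.6 and 75.1 CPM against 62.0, 53.9 and 56.0 CPM, 1.21-fold higher (0.28 ± 0.07, adjusted p = 0.00208), and again all 3 were above. The count of CLB2 over CLB1 was 1.09, 0.933 and 0.930 in H4-S47D and 0.783, 0.653 and 0.650 in wild type, without overlap (exact permutation p = 0.1, the smallest this design can give, adjusted p = 0.2). The G1 cyclins CLN1, CLN2 and PCL1 differed from wild type by -0.01, 0.11 and -0.11, with intervals within -0.34 and 0.26.

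CLN3 in non-stressed H4-S47D cells differed by 0.20 (adjusted p = 0.0872) and was called higher without non-stressed wild-type replicate 1 (0.26, 0.0479) or 3 (0.30, 0.0145) or non-stressed H4-S47D replicate 3 (0.27, 0.029). CLB6 was called without non-stressed wild-type replicate 1 (0.59, 0.0442), which gives 5 called genes in place of 3, and SWI4 without non-stressed H4-S47D replicate 2 (0.46, 0.0146). The SIC1, CLB1 and CLB2 calls held without each library in turn. Of the 12 genes of the CLB2 cluster list 6 were higher and 0 lower, where 26.6% and 25.3% of all tested genes were called, among them CHS2 and IQG1, which act in septation and cytokinesis (0.67 and 0.66), and CDC5 (0.40). Of the 12 M/G1 genes 7 were lower and 1 higher, beside the same shares, including ASH1, a daughter-cell repressor gene (-0.69), and EGT2 (-0.65), which like SIC1 is a target of the transcription factor Swi5. SWI5 itself was higher (0.35). Of the 5 histone genes 4 were lower, HTA2 by 1.04. The remaining lists are read beside the same shares. Of 11 G1/S regulators 5 were higher and 1 lower, and of 11 G1/S target genes 2 and 4. Of 10 genes of kinase inhibitors and cyclin destruction 4 were higher and 1 lower. Among 7 other cyclins and parts of the kinase 1 was higher and 3 lower, and among 5 G2/M regulators 0 and 1. Beside these changes, all 4 MATα markers were higher in non-stressed H4-S47D libraries (summed 98.7 to 125 CPM, against 51.6 to 63.8 CPM in wild type) and 3 of 5 MATa markers were lower (1480 to 1609 CPM against 1875 to 1943 CPM). No marker of either list was at 0. Their part in the result, and that of TRP1, was not tested.

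Under osmostress the H4-S47D response differed from that of wild type at 3 of the 10 genes, SIC1, PCL1 and CLN3. The difference between the 2 responses was called higher for 2 and lower for 1, beside 12.9% and 20.7% of all tested genes. SIC1 in H4-S47D went from 32.8, 32.9 and 34.4 CPM to 47.05, 56.0 and 57.1 CPM, a rise of 1.60-fold (adjusted p = 1.65e-08). These osmostressed libraries overlapped with the 52.9, 53.4 and 57.8 CPM of osmostressed wild type, where SIC1 did not pass the test. The responses differed by 0.78 ± 0.12 on the log2 scale (adjusted p = 4.78e-06), a value that shares the non-stressed libraries with the difference without stress. PCL1 rose in H4-S47D from 38.3, 43.6 and 41.8 CPM to 50.9, 43.5 and 56.4 CPM (log2 difference 0.29 ± 0.11, adjusted p = 0.0243), and although the 2 groups overlapped at their edge, the responses differed by 0.52 ± 0.16 (adjusted p = 0.0125). CLN3 rose from 122, 127 and 105 CPM to 154, 141 and 148 CPM, 1.25-fold in H4-S47D against 1.65-fold in wild type, a difference of -0.40 ± 0.14 (adjusted p = 0.0223). Its non-stressed and osmostressed libraries did not overlap in either strain.

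The SIC1 difference held without each library in turn. Those of PCL1 and CLN3 rested on single libraries, and that of CLN3 on the settings too. Without non-stressed wild-type replicate 2, both were lost and 1 of 3 calls was left (PCL1 0.43, adjusted p = 0.0519, and CLN3 -0.26, 0.0912). The PCL1 difference was also lost without osmostressed H4-S47D replicate 3 (0.42, 0.0568), and its rise in H4-S47D without that library (0.18, 0.208) or non-stressed replicate 1 (0.24, 0.101). That of CLN3 was lost without osmostressed wild-type replicate 1 (-0.37, 0.0532) or non-stressed H4-S47D replicate 1 (-0.38, 0.0504) or 2 (-0.35, 0.0576). With all libraries kept, the CLN3 difference was lost with DESeq2 (-0.34, 0.0595), with RLE scaling (-0.35, 0.0572) and with the libraries compared alone (-0.33, 0.15). The falls of the other cyclins were called in H4-S47D as well: CLN1 2.22-fold, CLN2 1.90-fold, CLB1 2.48-fold, CLB2 3.13-fold, CLB5 1.47-fold and CLB6 3.16-fold, and their differences from the wild-type responses were between -0.59 and 0.25 with none called. With library totals, which shift the median of all genes by 0.35, the fall of CLB5 was lost (-0.21, adjusted p = 0.123, from -0.56). Without osmostressed H4-S47D replicate 1, which stood apart in HHF2 and was the lowest of its group for SIC1, no call changed, and the SIC1 difference was 0.87. In all, 3 of the 10 genes were called higher and 6 lower in osmostressed H4-S47D cells, beside 35.9% and 36.5% of all tested genes. CLB2 in osmostressed H4-S47D stood at 24.8, 20.0 and 21.2 CPM, each above the 13.5 to 15.5 CPM of osmostressed wild type, a pair of groups for which no test was fitted. Of the MATα markers 3 of 4 were called lower in this difference (summed 72.8 to 77.3 CPM in osmostress, against 58.5 to 69.6 CPM in wild type), and their part was not tested.

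**Figure D5:**
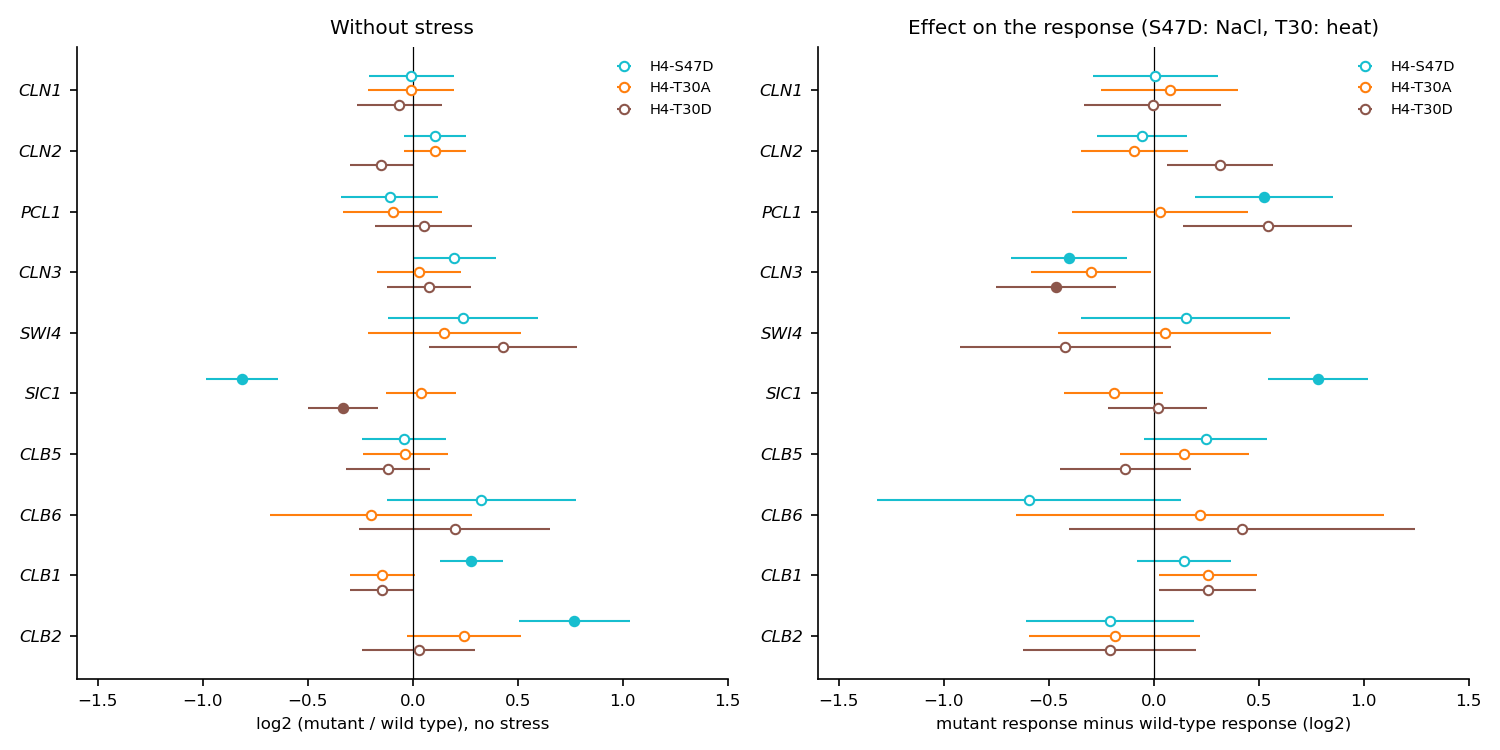
Left: log2 difference between each histone mutant and wild type without stress, for the 10 genes. Right: response of the mutant minus that of wild type, to osmostress for H4-S47D and to heat for H4-T30A and H4-T30D. Lines are 95% intervals from edgeR, and filled points passed the test at an adjusted p under 0.05: SIC1, CLB1 and CLB2 in H4-S47D and SIC1 in H4-T30D on the left, and SIC1, PCL1 and CLN3 in H4-S47D and CLN3 in H4-T30D on the right.

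Compared with wild type, H4-T30A cells gave no call for these genes. Without stress 0 of the 10 genes were called higher and 0 lower, beside 0.612% and 0.773% of all tested genes, and in the effect on the heat response 0 and 0, beside 0.177% and 0.306%. At an unadjusted p under 0.05 there were 0 and 2 genes in edgeR, and DESeq2 on all libraries also called 0 in each. Without stress the differences from wild type lay between -0.20 (CLB6, interval -0.68 to 0.28) and 0.24 (CLB2, interval -0.03 to 0.51). In the heat response the 2 were CLN3 (-0.30, interval -0.58 to -0.01, adjusted p = 0.426) and CLB1 (0.26, interval 0.03 to 0.49, 0.389). H4-T30A cells had their own heat response: 2 of the 10 genes were called higher and 8 lower, beside 40.1% and 37.2% of all genes. CLN2 stood at 118, 122 and 115 CPM without stress and at 13.4, 13.2 and 12.3 CPM in heat, a fall of 9.12-fold (adjusted p = 4.18e-24), and PCL1 fell 6.06-fold. SIC1 went from 61.0, 63.4 and 56.1 CPM to 75.9, 77.03 and 74.7 CPM, a rise of 1.26-fold (adjusted p = 0.000459), without overlap. CLN3 fell 1.36-fold (105 ± 4.4 to 77.1 ± 2.8 CPM, adjusted p = 0.000165). The rise of SWI4 (0.46, adjusted p = 0.0187) was lost without non-stressed H4-T30A replicate 2 (0.43, 0.0507) or heat-stressed replicate 3 (0.42, 0.0557).

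In H4-T30D cells without stress, SIC1 alone of the 10 genes was called, and it was lower. Calls were 0 higher and 1 lower, beside 16.3% and 15.3% of all tested genes. SIC1 stood at 45.0, 52.4 and 42.5 CPM against 56.9, 61.6 and 57.3 CPM in wild type, without overlap (1.26-fold lower, log2 difference -0.33 ± 0.08, adjusted p = 0.00259). With library totals, which shift the median of all genes by 0.20, the difference was -0.13 (adjusted p = 0.306). SWI4 stood at 16.5, 19.7 and 16.6 CPM against 15.6, 12.8 and 10.3 CPM, and although every H4-T30D library was above the wild-type ones, it did not pass (0.43, adjusted p = 0.0579). It did without non-stressed wild-type replicate 1 (0.59, 0.0199), which gives 2 calls in place of 1. With all libraries kept, SWI4 was called higher with upper-quartile scaling (0.46, 0.0473), library totals (0.62, 0.0266) and a minimum count of 50 (0.44, 0.0485). CLN3 was called higher with library totals only (0.28, 0.0141). CLB2 and CLB1, higher in H4-S47D, differed here by 0.03 (interval -0.24 to 0.30) and -0.15 (interval -0.30 to 0.00). CLB1 was called lower with RLE scaling (-0.20, adjusted p = 0.0295) and with DESeq2 (-0.20, 0.0215). So was CLN2 (-0.20, 0.0316, and -0.20, 0.0135), which did not pass with TMM scaling (-0.15, 0.117). Beside the SIC1 difference, 3 of the 4 MATα markers were higher (summed 71.0 to 79.4 CPM against 51.6 to 63.8 CPM in wild type) and all 5 MATa markers were lower (1460 to 1565 CPM against 1875 to 1943 CPM), with none at 0, and their part was not tested.

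In heat, H4-T30D cells showed falls in all 8 cyclin genes, with 1 gene called higher and 8 lower, beside 37.5% and 37.5% of all genes. CLN2 stood at 106, 95.5 and 96.1 CPM without stress and at 15.0, 13.8 and 14.5 CPM in heat, a fall of 6.87-fold (adjusted p = 1.10e-22), and PCL1 fell 4.25-fold (46.1 ± 3.7 to 10.8 ± 1.2 CPM). SIC1 rose 1.46-fold (adjusted p = 6.13e-07). Against the wild-type response, 0 genes were called higher and 1 lower, beside 4.4% and 9.62% of all tested genes. That gene was CLN3, which stood at 112, 109.5 and 105 CPM without stress and at 74.0, 62.3 and 76.8 CPM in heat, below the 85.3 to 98.2 CPM of heat-stressed wild type. Its response differed from that of wild type by -0.46 ± 0.14 (adjusted p = 0.0249). PCL1 (0.54, adjusted p = 0.063) and CLN2 (0.31, 0.0872) did not pass. In heat-stressed H4-T30A, CLN3 stood at 80.2, 76.1 and 75.0 CPM, also below heat-stressed wild type. The CLN3 heat response in H4-T30D differed from that in H4-T30A by -0.17 (interval -0.45 to 0.12, adjusted p = 0.498).

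These calls changed with single libraries and settings. That of CLN3 was lost without replicate 2 of non-stressed wild type (-0.32, 0.0794), heat-stressed wild type (-0.42, 0.0725), non-stressed H4-T30D (-0.43, 0.0619) or heat-stressed H4-T30D (-0.38, 0.0797), and without non-stressed H4-T30D replicate 1 (-0.41, 0.0766). It was also lost with RLE scaling (-0.39, 0.0728), with DESeq2 (-0.38, 0.0674) and with the libraries compared alone (-0.38, 0.15), and the 3 genes called with RLE scaling or DESeq2 were CLN2, CLB1 and PCL1. Without the heat-stressed wild-type replicate 3 that stood apart in STL1, 3 genes were called, with CLN2 at 0.47 (adjusted p = 0.00739) and PCL1 at 0.74 (0.0142) besides CLN3. PCL1 was also called without non-stressed wild-type replicate 3 (0.63, 0.032) or heat-stressed H4-T30D replicate 2 (0.63, 0.0432), and CLN2 without non-stressed H4-T30D replicate 1 (0.40, 0.0468). Set directly against H4-T30A, the effect of H4-T30D on the heat response was called higher for 1 of the 10 genes and lower for 0, beside 3.78% and 5.23% of all tested genes. CLN2 was this gene, with a difference of 0.41 ± 0.12 (adjusted p = 0.0321), in which wild type cancels. The call was lost in 9 of the 12 fits without 1 library, the lowest value being 0.38 and the adjusted p between 0.0531 and 0.0785: without H4-T30A replicates 1 or 2 and H4-T30D replicates 2 or 3 of the non-stressed groups, any heat-stressed H4-T30A replicate, and heat-stressed H4-T30D replicates 1 or 3. PCL1 differed by 0.51 (interval 0.12 to 0.91, adjusted p = 0.0955).

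Across the 9 group means of log2 CPM, the 10 genes fell into similar and opposed profiles, given as a description because groups share strains and libraries. CLN1 and CLB5 (Pearson's r = 0.98, n = 9 groups), CLB1 and CLB2 (0.98) and CLN1 and CLN2 (0.96) were the most alike, and SIC1 ran opposite to CLB6 (-0.80), CLN2 (-0.78) and PCL1 (-0.76). Among all tested genes, the profile nearest to CLN2 was that of YOX1 (0.998) and the nearest to CLB6 included YHP1 (0.989). MCM7, a subunit of the replicative helicase, was nearest to both CLB1 (0.989) and CLB2 (0.980). For the other genes the nearest were GDS1 to CLN1 (0.998), RRM3 to CLN3 (0.991), RPL31B to CLB5 (0.984), UAF30 to PCL1 (0.983), CPP1 to SIC1 (0.972) and FRE5 to SWI4 (0.946).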

How the data were processed

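Poly(A) RNA from 27 libraries was prepared with a stranded kit and sequenced as single-end reads. The authors mapped the reads with TopHat2 2.1.0 to the sacCer3 genome, counted uniquely mapping reads per gene with featureCounts 1.5.1 on the Ensembl R64-1-1 annotation, and deposited the counts without normalization. A strand setting is not given in the sources used here. Gene positions and sequences came from the RefSeq copy of the R64 assembly, matched by locus tag (6025 genes) or symbol (31).

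Groups came from the labels. Genes were kept by filterByExpr (minimum count 10), scaled by TMM (factors 0.819 to 1.32) and tested with edgeR 4.0.16 in R 4.3.3 by a quasi-likelihood fit to all libraries with 1 mean per group. Calls are at a Benjamini-Hochberg adjusted p under 0.05 over 6209 genes, with glmQLFTest against 0, or glmTreat against a log2 fold change of 1 where a change past 2-fold is named. A fold is 2 to the power of the fitted log2 difference, and SE and 95% intervals are from this fit. Replicates are biological by the study's methods, and p-values measure the spread between them. Count ratios had 0.5 added to each count and were compared by exact permutation. The other alternatives are in the closing section. The fit was tested on simulated data.

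The 10 genes and the lists of cell cycle and mating-type genes were chosen with earlier results of these data known. The genes named are the 10, members of those lists and, for each of the 10, the tested genes with the nearest profile by Pearson's r over the 9 group means of log2 CPM. The checks of replicates found no libraries alike within sampling noise and no pairing by replicate number. Figures were drawn with matplotlib.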

Additional observations from a re-analysis of the deposited data

Results flagged for a closer look

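For 5 results the effect of a stress differed between strains by a test of the difference itself in edgeR. The SIC1 responses to osmostress, -0.10 on the log2 scale in wild type and 0.68 in H4-S47D, differed by 0.78 (adjusted p = 4.78e-06). Those of CLN3, 0.72 and 0.32, differed by -0.40 (0.0223). The PCL1 responses, -0.24 in wild type and 0.29 in H4-S47D, differed by 0.52 (0.0125). CLN3 responded to heat with a difference of -0.46 between H4-T30D and wild type (0.0249). CLN2 responded to heat with a difference of 0.41 between H4-T30D and H4-T30A (0.0321). With 3 libraries per group, single libraries could not be tested as outliers within a group.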

How the results depend on the processing

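Over 150 differences of the 10 genes, 1312 of 1370 recomputed values kept their side of the threshold under the alternatives. These were RLE and upper-quartile scaling, library totals, other filters, a robust fit, DESeq2 1.42.0 and fits to the libraries compared. Without 1 library, 1089 of 1140 kept it. Of the rest, 20 and 33 lost a call and 37 and 18 gained one. A change of direction was counted only where the main or the recomputed value was called. Uncalled values among those kept may therefore differ in sign. The 1 counted as reversed was CLB1 between heat and osmostress, -0.28 with library totals. Replicate numbers do not pair the libraries (13 of 108 correlations of same-numbered deviations were over 0.1), and the replicate block changed no call of the 10 genes, with 3 called in H4-S47D without stress as in the unblocked fit. With 5 added to counts, all 32 ratio differences moved by less than the larger SD of the groups compared. Leaving out 1 of 3 libraries cannot move a mean by that much, so those ratio values are no check.

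Genes called past 2-fold in osmostress (2) were 0 with library totals and 4 when tested against 0 and past 2-fold. In H4-S47D without stress (3) there were 5 with upper-quartile scaling and 5 with library totals. In H4-T30D without stress (1) there were 3 with RLE scaling, 3 with DESeq2 and 2 with upper-quartile scaling, library totals or a minimum count of 50, and for its heat effect (1) 3 with RLE scaling or DESeq2 (CLN2, CLB1 and PCL1, with CLN3 lost), 2 with upper-quartile scaling and 0 with the libraries compared alone. The difference between H4-T30D and H4-T30A (1) gave 0 with library totals, 3 with the libraries compared alone and 2 with DESeq2. Without 1 library there were 3 to 5 in H4-S47D without stress, 1 to 3 for its effect on osmostress, 1 to 2 in H4-T30D without stress, 0 to 3 for its heat effect, and 0 to 1 between H4-T30D and H4-T30A. The cause was not tested. The lowest counts limit CLB6 most.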
